A study of Drosophila melanogaster with 4 samples.

Results

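The Notch pathway genes described here are 10 genes chosen by symbol from the 13968 protein-coding genes of the fly annotation: the receptor gene N, the ligand genes Dl and Ser, the regulators numb and neur, the nuclear factors Su(H) and H, and 3 genes of the Enhancer of split cluster (E(spl)mdelta-HLH, E(spl)m3-HLH, E(spl)m4-BFM). They were read in chromatin immunoprecipitation and sequencing (ChIP-seq) data for Gug (Grunge, the fly Atrophin), a nuclear co-repressor. Whole Drosophila melanogaster embryos of a 0 to 24 h collection carried a Gug-eGFP fusion, and an anti-GFP antibody was used for the precipitation. The 4 biological replicates form 1 group with the same strain, stage and antibody, so there is no second condition to compare, and no control sample was analysed here. The window spans the whole of embryogenesis, and a peak in whole embryos does not show in which cells or at which stage the protein was there.

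In the Notch pathway, a membrane receptor is cut after it meets Delta or Serrate on a neighbouring cell, and its intracellular part joins the DNA-binding protein Su(H) and the co-activator Mastermind to switch on target genes. Without that signal Su(H) is held in a repressor complex by Hairless, which brings in the co-repressors Groucho and CtBP. The best known targets in the fly are the Enhancer of split genes, a cluster that encodes basic helix-loop-helix (bHLH) repressors and small Bearded-family (BFM) proteins. In embryos and in neural precursors these proteins keep the neighbours of a future neural cell from taking the same fate.

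The authors deposited 1 peak list per replicate, and replicates 1 to 4 gave thresholded lists of 1948, 3786, 2117 and 2450 peaks on the main arms (mean 2575 ± 834 SD, n = 4). Summits no more than 200 bp apart were joined into regions, and a region with a peak in at least 2 of the 4 lists is called reproducible. There were 2643 such regions, 1171 of them in all 4 lists. Strength is given as a signal percentile, the rank of a peak's deposited signal score within its own list, where 100 is the strongest peak. Positions are on the dm6 build, and TSS stands for an annotated transcription start site. Each list was made from the replicate's own alignment and from further input files that all 4 replicates share and whose role is not stated, per the README, so the lists are not fully separate measurements. The lists hold no read counts, so the sequencing depth is unknown.

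Gug regions were found at 3 of the 10 genes. E(spl)m3-HLH, E(spl)mdelta-HLH and numb had a reproducible region within 1 kb of a TSS, which is 30.0% of the members beside 15.9% of all protein-coding genes (2216 of 13968). The single lists held a peak within 1 kb of a TSS of 3, 4, 2 and 3 members in replicates 1 to 4 (mean 3.00 ± 0.816 SD, n = 4), and of 10.3%, 22.5%, 13.8% and 13.02% of all genes. Regions in all 4 lists lay at 2 members, numb and E(spl)m3-HLH, and at 7.84% of all genes. With so few genes the counts are a description and were not tested.

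With the gene span and 10 kb on either side, 7 of the 10 genes (70.0%) had a reproducible region, beside 49.4% of all protein-coding genes. The median span was 13051 bp for the members and 2164 bp for all genes. The 3 Enhancer of split members are shorter than that median and all 3 had a region in the window, as did 4 of the 7 longer members, and the part of gene length in the count was not tested. Dl, Ser and Su(H) had none. The windows held 10 reproducible regions, 5 of them in all 4 lists and 5 in exactly 2, and 6 further peaks in 1 list. Of the 10 regions 6 lay in introns, 3 between genes, 1 in a 5' UTR and none in a coding exon. The nearest TSS was that of a member in 4 of the 10, so most of the regions near these genes lie closer to the start of another gene.

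**Figure D1:**
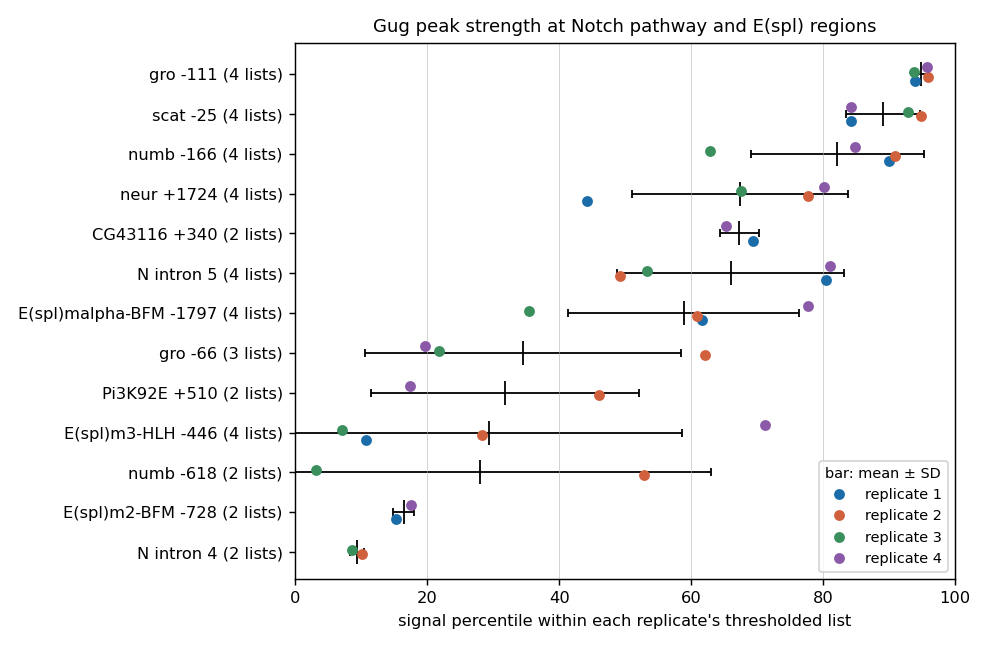
Signal percentile in each replicate's thresholded list (x axis) for the 13 reproducible regions in the windows of the 10 genes or in the Enhancer of split cluster (y axis), named by the nearest TSS and the distance to it in bp, minus for upstream. Points are replicates, and bars give the mean and SD over the lists that hold the region: the region in the first intron of gro is the strongest, at 94.9, and E(spl)m3-HLH spreads from 7.04 to 71.2.

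The receptor gene N lies on chromosome X at 3134870 to 3172221 on the plus strand and has 1 TSS. It carried Gug deep inside the gene and not at its start. The stronger region spans 3162412 to 3162760 in intron 5, 27.7 kb downstream of the N TSS and 9.65 kb before the gene's end. It was called in all 4 lists at percentiles of 80.5, 49.2, 53.3 and 81.1 in replicates 1 to 4 (mean 66.03 ± 17.2 SD, n = 4). Replicates 1 and 4 ranked it higher than replicates 2 and 3, a split read from the values themselves. For comparison, all 4-list regions more than 1 kb from any TSS had medians of 68.02, 75.04, 59.2 and 72.3 in replicates 1 to 4, and those within 200 bp of a TSS had 65.5, 86.8, 75.6 and 74.6. What part such differences between the lists have in the values at N was not tested. A weaker region in intron 4, at 3157302 to 3157627, was called in replicates 2 and 3 only, at percentiles of 10.1 and 8.55. The nearest protein-coding TSS to both belongs to CG18508, at 10569 bp and 15677 bp, so no annotated protein-coding start lies within 10 kb of either. The sequence at the 4-list summit is shown because it is the only part of the receptor gene that every list picked out. Capitals in this and the following sequences mark matches to the letter motifs listed further on, and here the only match is a TATA box on the minus strand.
N intron 5 (chrX:3162471-3162671, plus strand): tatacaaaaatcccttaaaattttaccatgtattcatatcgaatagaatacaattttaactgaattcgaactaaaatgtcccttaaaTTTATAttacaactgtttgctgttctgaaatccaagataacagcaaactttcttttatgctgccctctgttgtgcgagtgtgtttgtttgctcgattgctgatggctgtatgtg

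The ligand genes Dl (3R, 19302731 to 19326217, minus strand) and Ser (3R, 27172090 to 27194267, minus strand) had no peak of any thresholded list in the gene or within 10 kb. Longer ranked lists, which keep peaks that missed the authors' threshold, held 32752 to 49135 peaks per replicate. In them the strongest peak in the Dl window had percentiles of 66.4, 74.6, 46.6 and 88.6 in replicates 1 to 4, and a different position in each list. Only that of replicate 2 lay at the Dl promoter, 21 bp downstream of the TSS. The strongest peak in the Ser window had percentiles of 85.4, 87.4, 84.3 and 64.6. In replicates 1 and 2 it fell at almost the same place inside Ser, 7656 bp and 7678 bp downstream of the nearest Ser TSS.

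numb encodes an inhibitor of Notch handed to 1 daughter cell in asymmetric divisions. It had the strongest of the reproducible regions whose nearest TSS was that of a member. The gene lies on 2L at 9437469 to 9464184 on the plus strand, with TSSs at 9437469 and 9449830. The internal TSS carried the peak. A region at 9449520 to 9449809, in intron 2 and 166 bp upstream of that TSS, had percentiles of 90.04, 90.9, 62.9 and 84.8 in replicates 1 to 4 (mean 82.2 ± 13.1 SD, n = 4). Replicate 3 was the low one and the other lists lay within 84.8 to 90.9. A second summit 452 bp farther upstream, 618 bp from the same TSS, was called in replicates 2 and 3 only, at 52.8 and 3.16. No reproducible region lay at the upstream TSS, 12.4 kb away. Genes often start from several promoters, and here the 4-list region was at only 1 of the numb starts. The sequence at its summit holds 1 GAGAG match and 1 CAGTG, both in capitals.
numb, 166 bp upstream of the internal TSS (chr2L:9449564-9449764, plus strand): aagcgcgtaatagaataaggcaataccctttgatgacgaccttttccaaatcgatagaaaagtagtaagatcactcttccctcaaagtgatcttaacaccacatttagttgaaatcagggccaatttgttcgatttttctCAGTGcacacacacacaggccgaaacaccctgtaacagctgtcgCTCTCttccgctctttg

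The strongest region in any of the 10 windows also lay beside numb but belongs, by distance, to other genes. It spans 9431258 to 9431471 on 2L, 25 bp upstream of scat, which encodes a vesicle-tethering protein, and 328 bp upstream of FucTB, a fucosyltransferase gene on the other strand. Its percentiles were 84.3, 94.8, 92.96 and 84.2 in replicates 1 to 4 (mean 89.1 ± 5.62 SD, n = 4), and it is 6.09 kb from the first numb TSS. Replicates 2 and 3 ranked it above replicates 1 and 4, the reverse of the N intron.

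neur encodes a ubiquitin ligase that sends Delta into endocytosis, which ligand signalling needs. It lies on 3R at 9020348 to 9039471 on the minus strand, with TSSs at 9039471 and 9033731. The one reproducible region, at 9031839 to 9032191, lay in intron 1 and 1724 bp downstream of the inner TSS, so outside the 1 kb promoter window. Percentiles were 44.2, 77.8, 67.5 and 80.2 in replicates 1 to 4 (mean 67.4 ± 16.4 SD, n = 4), with replicate 1 lowest. In the ranked lists it was the strongest peak of the neur window in each of the 4 replicates, at percentiles of 97.7 to 98.5. A further peak at the outer end, 599 bp inside neur and 112 bp inside hyx on the other strand, was called in replicate 2 only, at 44.1. Other single-list peaks in the window lay at Rel (replicate 2, 31.3) and Kcmf1 (replicate 1, 32.7). The summit sequence holds CAGTG at both places in capitals.
neur intron 1 (chr3R:9031907-9032107, plus strand): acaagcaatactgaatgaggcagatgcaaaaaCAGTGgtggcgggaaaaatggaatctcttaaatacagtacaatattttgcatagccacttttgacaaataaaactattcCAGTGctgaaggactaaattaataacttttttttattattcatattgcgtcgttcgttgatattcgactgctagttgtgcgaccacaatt

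**Figure D2:**
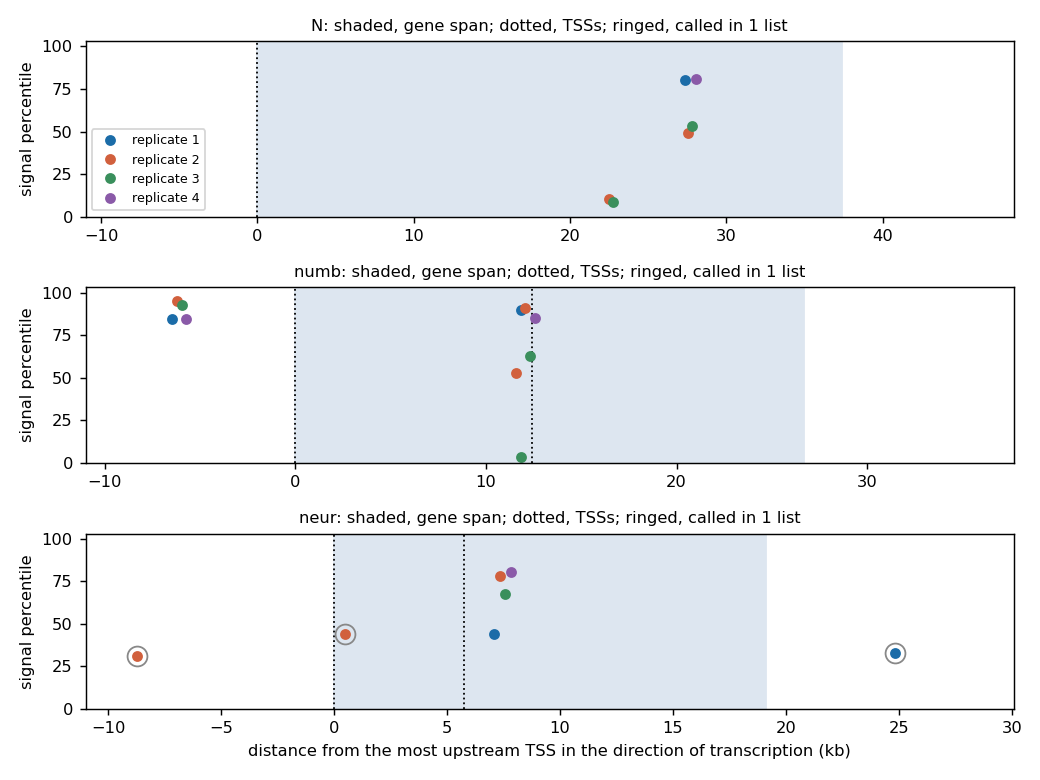
Thresholded peaks in the windows of N, numb and neur. The x axis is the distance in kb from the most upstream TSS, the y axis the signal percentile in the replicate's list. Points are peaks, moved sideways a little by replicate so that all are seen. The 4-list summits lie 27.7 kb into N, beside the internal numb TSS and downstream of the inner neur TSS.

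Su(H) encodes the DNA-binding protein of the pathway and lies on 2L at 15039488 to 15043334 on the plus strand. It missed the rule by 1 list. A peak at 15039289 to 15039588, 49 bp upstream of the TSS and 578 bp upstream of CIAPIN1, was called only in replicate 2, the longest list, at a percentile of 61.4. In the ranked lists the nearest peak at that place had percentiles of 50.95, 95.99, 92.9 and 16.9 in replicates 1 to 4, so replicate 3 came close behind and replicates 1 and 4 did not. The place is also in the authors' conservative and largest series-level sets.

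H encodes Hairless, the antagonist that holds Su(H) in its repressor complex, and lies on 3R at 20621938 to 20628915 on the plus strand. No thresholded list had a peak within 1 kb of its TSS. The region in its window, at 20634067 to 20634378, lay 5.31 kb beyond the end of H in the 5' UTR of Pi3K92E, which encodes a phosphoinositide kinase catalytic subunit. It was called in replicates 2 and 4 at percentiles of 46.1 and 17.4, and a peak 5 bp upstream of the Pi3K92E TSS was called in replicate 2 at 48.8. In the ranked lists the strongest peak of the H window lay at Pi3K92E in all 4 replicates, at 93.7, 94.7, 93.9 and 93.4.

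The Enhancer of split cluster runs over 52.3 kb of 3R, from the start of E(spl)mdelta-HLH at 25997621 to the end of gro, and holds 13 protein-coding genes. It had 6 reproducible regions within the cluster or 1 kb outside it, 3 of them in all 4 lists, 1 in 3 lists and 2 in exactly 2. That is 1 region per 9.05 kb, against 1 per 52.04 kb over the main arms. The arms include gene-poor sequence, and the part of gene density in this contrast was not tested. A region lay within 1 kb of a TSS of 4 of the 13 genes (30.8%, beside 15.9% of all genes): E(spl)mdelta-HLH, E(spl)m2-BFM, E(spl)m3-HLH and gro. By family these were 2 of 7 bHLH genes, 1 of 4 Bearded-family genes and gro, while Kaz-m1, which encodes a protease inhibitor, had none. The single lists reached 4, 2, 2 and 5 of these genes (mean 3.25 ± 1.50 SD, n = 4). Replicate 2, the list that covered the most genes, was at the low end here together with replicate 3, and replicates 1 and 4 were at the high end. Without replicate 1, and likewise without replicate 4, the count fell to 2 of 13, with E(spl)mdelta-HLH and E(spl)m2-BFM lost. That is 15.4% of the cluster genes, beside 15.3% of all genes without replicate 1 and 14.3% without replicate 4, so the share is then close to the background.

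At its left end, the cluster's first region lay 965 bp upstream of E(spl)mdelta-HLH, just inside the 1 kb limit. It spans 25996506 to 25996809 and sits in the intron of CG43116, whose own TSS is closer at 340 bp. Replicates 1 and 4 called it, at percentiles of 69.4 and 65.3. In the ranked lists it had 98.8, 74.7, 87.6 and 97.4 in replicates 1 to 4, so it was present but lower in the lists that did not call it. A peak closer to the gene, 304 bp upstream, was called in replicate 4 only, at 21.6. The summit sequence of the first region holds a pair of TATAAA matches, a CAGTG and a proneural E-box directly after it.
CG43116 intron, 965 bp upstream of E(spl)mdelta-HLH (chr3R:25996556-25996756, plus strand): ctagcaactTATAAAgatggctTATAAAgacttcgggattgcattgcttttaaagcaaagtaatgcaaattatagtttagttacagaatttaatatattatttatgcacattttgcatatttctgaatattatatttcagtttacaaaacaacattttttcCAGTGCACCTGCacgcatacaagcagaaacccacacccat

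E(spl)m3-HLH had a region in all 4 lists, 446 bp upstream of its TSS, at 26021199 to 26021577. It was a weak one in 3 of the lists. Percentiles were 10.7, 28.3, 7.04 and 71.2 in replicates 1 to 4 (mean 29.3 ± 29.4 SD, n = 4), and replicate 4 was the high one. Only 1.96% of the 4-list regions of the genome had a lower mean percentile. A non-coding transcript, lncRNA:CR43644, starts closer, at 301 bp. E(spl)m4-BFM, a Bearded-family gene whose relatives inhibit Neuralized, is the neighbour on the minus strand (26023821 to 26024579), and no thresholded list had a peak within 1 kb of its TSS. Its nearest region is the one at E(spl)m3-HLH, 3202 bp downstream of its TSS. The E(spl)m3-HLH summit lies in AT-rich sequence, with 23.9% G and C against a median of 37.3% over all regions.
E(spl)m3-HLH, 446 bp upstream (chr3R:26021277-26021477, plus strand): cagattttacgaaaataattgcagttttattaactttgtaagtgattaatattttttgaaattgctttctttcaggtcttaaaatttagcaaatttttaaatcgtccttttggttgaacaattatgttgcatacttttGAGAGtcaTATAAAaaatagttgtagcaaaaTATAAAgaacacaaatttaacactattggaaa

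The strongest region of the cluster was at gro, which encodes the co-repressor Groucho that Hairless and the bHLH repressors recruit. It spans 26042396 to 26042636, in the first intron and 111 bp upstream of an internal TSS at 26042641. Percentiles were 93.9, 95.9, 93.8 and 95.8 in replicates 1 to 4 (mean 94.9 ± 1.14 SD, n = 4), the most even values of any 4-list region described here except that of lgd below. A second region 66 bp upstream of the outer gro TSS, at 26041456 to 26041828, was called in replicates 2, 3 and 4 at 62.1, 21.8 and 19.6.
gro intron 1 (chr3R:26042430-26042630, plus strand): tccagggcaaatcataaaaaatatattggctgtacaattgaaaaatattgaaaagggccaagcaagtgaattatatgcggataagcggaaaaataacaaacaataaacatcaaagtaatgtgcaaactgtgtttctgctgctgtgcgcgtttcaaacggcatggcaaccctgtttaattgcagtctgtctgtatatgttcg

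The remaining 4-list region of the cluster lay between genes, 1797 bp upstream of E(spl)malpha-BFM and 3073 bp upstream of E(spl)mbeta-HLH, at 26008902 to 26009247. Its percentiles were 61.6, 60.9, 35.4 and 77.8 in replicates 1 to 4 (mean 58.9 ± 17.5 SD, n = 4). It is 10.5 kb past the end of E(spl)mdelta-HLH, and so just outside the member windows. The gro intron region was above it by 17.9 to 58.4 percentile points in the 4 lists (mean difference 35.9 ± 16.8 SD, n = 4). The pair was picked as the strongest 4-list regions of the cluster by these same percentiles, so the difference is a description. The region at E(spl)m2-BFM, 728 bp upstream of its TSS and inside lncRNA:CR43643, was called in replicates 1 and 4 at 15.3 and 17.5. A peak 342 bp upstream of E(spl)m7-HLH was called in replicate 4 only, at 48.1. The summit of the intergenic region has CAGTG at both marked places.
between E(spl)mbeta-HLH and E(spl)malpha-BFM (chr3R:26008996-26009196, plus strand): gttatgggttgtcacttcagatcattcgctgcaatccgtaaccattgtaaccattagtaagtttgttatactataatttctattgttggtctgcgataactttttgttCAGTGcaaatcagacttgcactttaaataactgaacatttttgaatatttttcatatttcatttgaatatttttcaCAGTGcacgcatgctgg

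Su(H) recognises short sequences written here as CGTGGGAA, TGTGGGAA, CGTGAGAA and TGTGAGAA, searched on both strands. In the cluster with 1 kb on either side there were 38 matches, or 0.6999 per kb against 0.106 per kb over the main arms. None of the 38 lay within 100 bp of a Gug summit, and 1 lay within 300 bp. The windows within 100 bp of the summits cover 2.22% of the stretch, so an even spread would put only 0.844 matches there. The median distance from a match to the nearest summit was 2914 bp.

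In the cluster, genes with Su(H) letters in the 500 bp before the TSS had no reproducible Gug region within 1 kb. In the 500 bp before the most upstream TSS, 6 of the 13 cluster genes had a match, beside 5.05% of all protein-coding genes, and 5 had 2 or more, beside 0.236%. All 6 (E(spl)mgamma-HLH, E(spl)mbeta-HLH, E(spl)malpha-BFM, E(spl)m4-BFM, E(spl)m5-HLH and E(spl)m8-HLH) were among the 9 genes without a reproducible Gug region within 1 kb, and none of the 4 genes with one had a match. For the proneural E-box (GCAGCTG or GCAGGTG) the same count was 6 of 9 and 0 of 4. Over all genes no such split was seen, with Su(H) letters in 4.96% of promoters with Gug and 5.06% of those without. The split is a count over 13 neighbouring genes that share regulation and was not tested. It also depends on the stretch searched for letters. The regions 965 bp upstream of E(spl)mdelta-HLH, 728 bp upstream of E(spl)m2-BFM and in the gro intron lie outside that stretch. A Su(H) match lay 230 bp from the E(spl)m2-BFM summit, while the nearest matches to the other cluster summits were 413 to 2525 bp away. With a 2 kb window in place of 1 kb, E(spl)malpha-BFM and E(spl)m8-HLH joined the genes with a region, and 2 of 6 then had a match. Of the 7 members outside the cluster, Su(H) alone had Su(H) letters in this stretch.

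E(spl)mgamma-HLH, E(spl)m4-BFM and E(spl)m8-HLH share a paired arrangement, a plus-strand and a minus-strand Su(H) match whose starts are 25 bp apart. Such facing pairs are known from Notch-responsive enhancers. Of the 13968 promoters searched, 3 had a pair with this orientation and spacing, and all 3 belong to the cluster; the spacing was itself read from the cluster. The pairs start 294, 311 and 224 bp upstream of the TSS of E(spl)mgamma-HLH, E(spl)m4-BFM and E(spl)m8-HLH. They are shown in the direction of the gene, with the Su(H) letters in capitals. The nearest reproducible Gug summits are 2917, 3497 and 1638 bp from the middle of these pairs. Within 200 bp of them the ranked lists held a peak only in replicate 1, at percentiles of 58.2 at E(spl)mgamma-HLH and 77.1 at E(spl)m8-HLH.
E(spl)mgamma-HLH (chr3R:25999547-25999599, plus strand): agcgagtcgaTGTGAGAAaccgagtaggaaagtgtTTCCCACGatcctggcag
E(spl)m4-BFM (chr3R:26024848-26024900, minus strand): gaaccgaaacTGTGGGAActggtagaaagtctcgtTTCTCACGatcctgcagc
E(spl)m8-HLH (chr3R:26040006-26040058, plus strand): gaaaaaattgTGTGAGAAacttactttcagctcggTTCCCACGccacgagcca

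**Figure D3:**
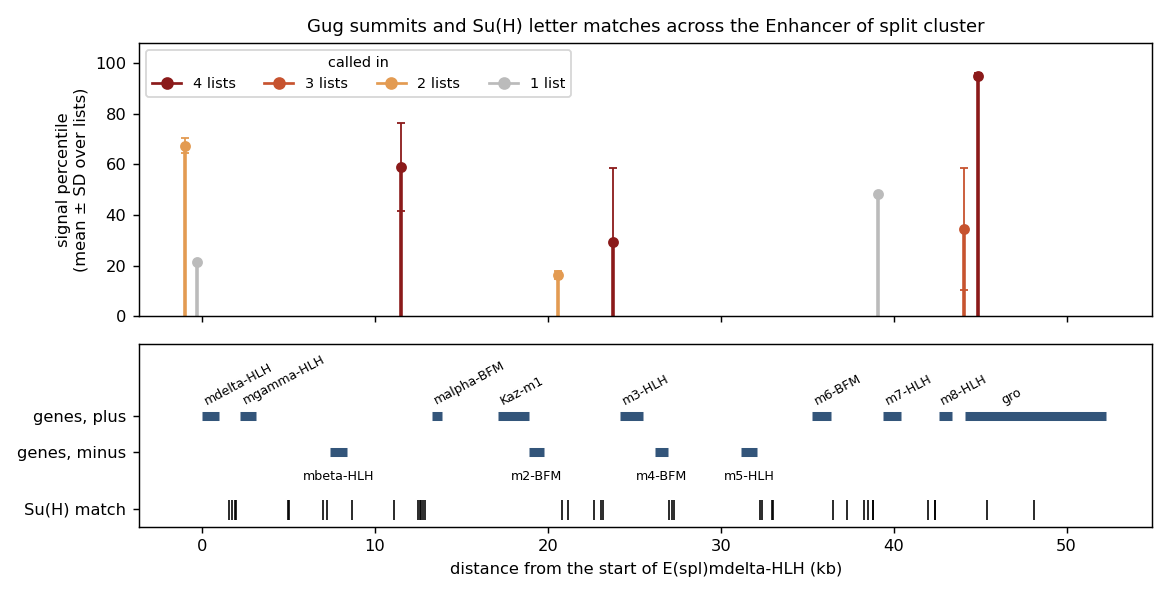
Map of the Enhancer of split cluster. The x axis is the distance in kb from the start of E(spl)mdelta-HLH. Upper panel, the mean signal percentile of each Gug region with its SD over the lists that called it, coloured by the number of lists. Lower panel, genes by strand and the 38 Su(H) letter matches as ticks. The gro region at 94.9 stands at the right end, and no tick lies within 100 bp of a reproducible summit.

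The 13 reproducible regions of the windows and the cluster were also searched for other letters within 100 bp of the summit. Su(H) letters were in 0 of 13 beside 2.23% of all 2643 regions. The proneural E-box was in 2 (scat and CG43116) beside 5.11%, and TATAAA in 4 beside 31.9%. GAGAG, the letters bound by GAGA factor, was in 4 beside 25.01%. The sites of bHLH repressors CACGTG and CACGCG were in none, and CACGAG in 1 (numb, 618 bp upstream), beside 2.38%, 3.75% and 3.86%. The DREF letters TATCGATA were in none beside 4.01%. CAGTG, chosen after the summit sequences had been read, was in 6 of 13 (46.2%), beside 54.7% of all regions and 31.1% and 30.5% of windows of the same length 1000 bp to the left and right of them. With 13 regions none of these counts was tested, and a match does not show that a factor binds.

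A promoter rank was taken for every gene as a measure that does not depend on the authors' threshold. It is the percentile among all 13968 genes of the strongest ranked-list peak within 1 kb of any TSS, and genes with no such peak share the lowest value of a list. numb stood highest of the members at 98.6, 97.04, 93.8 and 97.3 in replicates 1 to 4 (mean 96.7 ± 2.05 SD, n = 4). E(spl)m3-HLH followed at 87.99 ± 5.93. Su(H) at 73.5 ± 15.1, neur at 73.3 ± 15.2 and E(spl)mdelta-HLH at 68.5 ± 35.8 came next and did not differ beyond their spread. N was at 57.7 ± 3.53 and Ser at 53.1 ± 23.7, and Dl (31.2 ± 21.7), H (30.7 ± 20.2) and E(spl)m4-BFM (26.3 ± 12.04) were lowest, each with a ranked peak in 1 list only. The median over the 10 members was 63.1, over the 13 cluster genes 48.7 and over all genes 44.5. E(spl)mdelta-HLH had the widest spread, with 96.3 and 94.4 in replicates 1 and 4, 63.6 in replicate 2 and no peak within 1 kb in replicate 3, whose summit lay 1007 bp away.

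**Figure D4:**
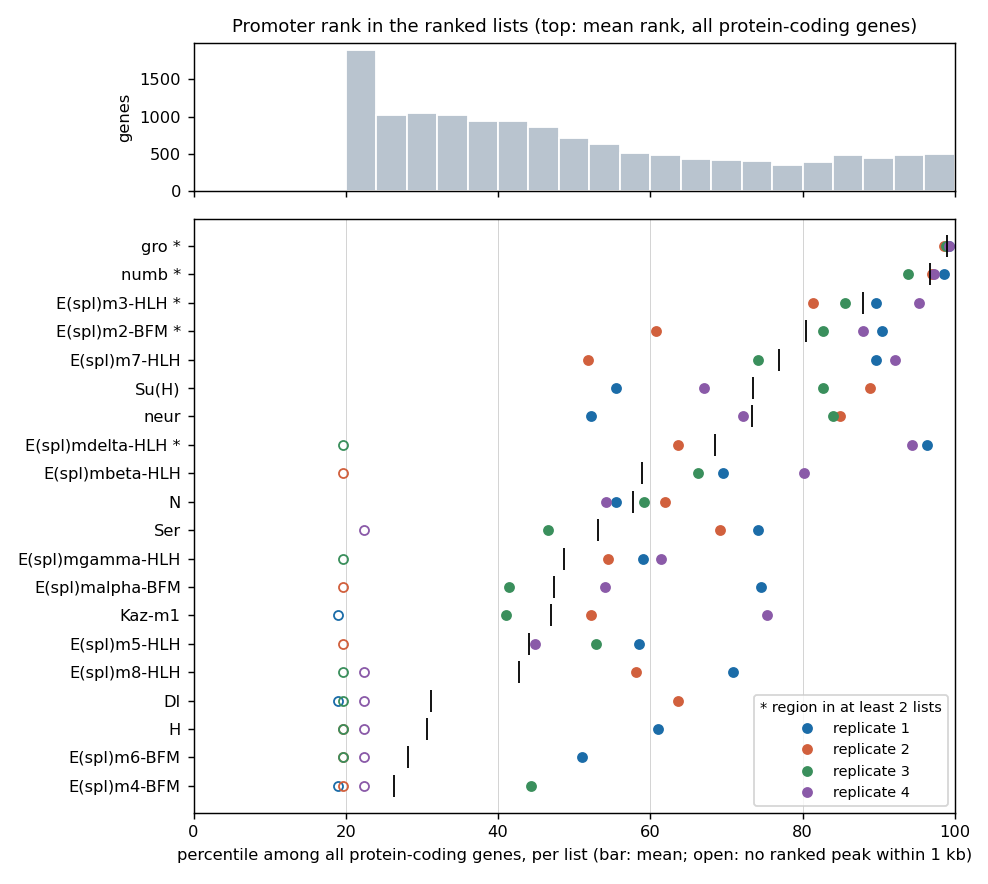
Promoter rank of the members and of all cluster genes. The upper panel counts all protein-coding genes by mean rank. In the lower panel the x axis is the percentile among all protein-coding genes in each replicate's ranked list, bars are means, open circles mean no ranked peak within 1 kb, and stars mark genes with a reproducible region. gro (mean 98.96) and numb (96.7) lie at the right, and E(spl)m4-BFM (26.3) at the left.

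A wider list of 41 further Notch pathway genes had 14 genes (34.1%) with a reproducible region within 1 kb of a TSS, beside 15.9% of all genes. Outside the cluster it was 12 of 31. The single lists reached 7, 18, 12 and 12 of the 41 (mean 12.2 ± 4.50 SD, n = 4), where they reached 10.3%, 22.5%, 13.8% and 13.02% of all genes. Regions in all 4 lists were at 5 of them (12.2%, beside 7.84% of all genes). lgd, a regulator of Notch in endosomes, was the strongest, with the summit 63 bp upstream (mean percentile 98.05 ± 0.301 SD, n = 4). alpha-Adaptin, an endocytic adaptor subunit that binds Numb, followed at 136 bp upstream (82.1 ± 6.46), then Fur1, a furin protease, at 216 bp upstream (78.7 ± 13.5). aph-1, a subunit of the gamma-secretase that releases the intracellular part of Notch, had its summit 124 bp upstream (54.6 ± 18.2). gro was the other.

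By role, genes with and without a region were found at most steps of the pathway. The sugar-modifying enzymes fng (687 bp upstream, 2 lists) and rumi (92 bp upstream, 3 lists) had one and O-fut1 did not. Of the 4 gamma-secretase genes, aph-1 and nct (991 bp upstream, 2 lists) had one, and Psn and pen-2 did not. Among the endocytic factors of the sending cell mib1 (42 bp upstream) and lqf (706 bp downstream) had one in 2 lists each, while aux, which encodes auxilin, and the member neur had none within 1 kb. The nuclear partners mam (384 bp upstream, 2 lists) and CtBP (881 bp downstream, 3 lists) had one, as did ago (73 bp upstream, 2 lists), an F-box protein gene, while the nuclear factor genes Bx42 and insv had none. The protease gene kuz, the trafficking genes spdo and Nak, and the ubiquitin ligase genes or regulators dx, Su(dx) and Nedd4 had no reproducible region either. Of these genes without one, neur, aux, pen-2, Bx42, kuz, dx, Su(dx) and Nedd4 had a thresholded peak within 1 kb in 1 list. Both co-repressor genes that work with Hairless, gro and CtBP, were thus in the called set. H itself was not, and neither was insv, which encodes a further co-repressor of Su(H). CtBP was no longer called with a 500 bp window. Of the 8 target bHLH and Bearded-family genes of the cluster that are in the wider list, only E(spl)m2-BFM had a region within 1 kb. The Bearded-family genes outside it (Brd, Tom, Ocho and BobA) and the Hes-type repressor genes dpn, Hey and h had none.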

How the data were processed

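The data were peak lists from Gug-eGFP ChIP-seq in 4 biological replicates of whole fly embryos, each with technical replicate 1. Chromatin was sheared by sonication to 200 to 800 bp, per the labels. Thresholded and longer ranked peak lists were made by the authors for each replicate on the dm6 build, and series-level lists from all 4 replicates, per the README deposited with each sample. Which aligner and peak caller were used is not given in the sources used here. Every deposited list gives a signal per peak, which is the authors' value and was ranked only within its list. Beside it each deposited list has a score and a column taken as a -log10 q-value from its place in the usual peak layout, since the files do not name it. That score comes from the irreproducible discovery rate and was 830 to 1000 in the thresholded lists. Depth is unknown, and the number of replicates limits the precision.

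Summits of the 4 thresholded lists within 200 bp of each other were joined, the median summit was the position, and at least 2 lists were required. TSSs came from Ensembl release 115 (protein-coding genes on 7 arms), sequence from the RefSeq copy of dm6. All 51 list symbols were matched, 5 through another name. The cluster was taken from the E(spl)mdelta-HLH start to the gro end. A planned exact sign-flip permutation test between 2 regions is not reported, because the pair had been picked by the values tested. The text names all members, all cluster genes, called genes of the wider list and the gene nearest each region. Wider-list genes without a region that are named with a rank were chosen after their values were seen. The members and lists were chosen with earlier results of these data known. Promoter ranks, promoter letters, the paired spacing and CAGTG were added after the data had been seen. Joining and assignment were tested on simulated summits. Python 3.11.15, numpy 2.4.6, pandas 2.3.3, scipy 1.17.1 and matplotlib 3.10.9 were used.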

Additional observations from a re-analysis of the deposited data

Results flagged for a closer look

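In 5 of 32 groups of 4 replicate values, 1 replicate stood apart from the other 3 (past Dixon's critical value for 4 samples). A rate of about 1 in 20 by chance holds for independent, normally distributed values. Counts, and ranks with a shared lowest value, are not such values, so the 5 groups cannot be set against that rate. All 5 are promoter ranks, and in each the replicate that stands apart is the only one with, or the only one without, a ranked peak within 1 kb of a TSS. Dl had a peak in replicate 2 only, with ranks of 18.97, 63.6, 19.7 and 22.4 in replicates 1 to 4 and a gap over range of 0.923. H had one in replicate 1 only, with ranks of 60.997, 19.7, 19.7 and 22.4 (0.935). E(spl)m4-BFM had one in replicate 3 only, with 18.97, 19.7, 44.3 and 22.4 (0.865), and E(spl)m6-BFM in replicate 1 only, with 51.05, 19.7, 19.7 and 22.4 (0.914). E(spl)mgamma-HLH lacked one in replicate 3 only, with 59.1, 54.4, 19.7 and 61.4 (0.8304). The lowest value in each list is the shared rank of genes with no peak. None of the signal percentiles of the 4-list regions stood apart in this way.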

How the results depend on the processing

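The difference in signal percentile between the 2 strongest 4-list regions of the cluster had the same direction in each of the 4 lists. Leaving out a replicate could therefore not change that direction. With peaks ranked by the column taken as -log10 q the difference was 42.04, beside 35.9 by signal. The cluster's share of genes with a region did not keep its place beside that of all genes. It was above by the main rule and below in the authors' conservative set. Counting peaks of at least 1 list gave 16 regions in the member windows, 5 members within 1 kb (neur and Su(H) added) and 23 wider-list genes, with 24.05% of all genes. At least 3 lists gave 5 regions, 7 wider-list genes and 2 cluster genes (all genes 11.5%), and all 4 lists gave 5, 5 and 2 (7.84%). Lists of equal length gave 6 regions and 13.3% of all genes. The stronger 50% of each list gave 5 regions, 4 members with a region in the window, 6 wider-list genes and 2 cluster genes (9.36%), and the cluster gene beside gro was then E(spl)mdelta-HLH, not E(spl)m3-HLH. The authors' conservative set gave 2 of 13 cluster genes (15.4%), below its 19.7% of all genes. The same set gave 4 of the 10 members and 17 of the 41 wider-list genes (41.5%), both above that 19.7%. Its members were numb, neur, Su(H) and E(spl)m3-HLH. Their largest set gave 5 members, 18 wider-list genes and 5 cluster genes, beside 22.9% of all genes. A 500 bp window gave 9 wider-list genes and 2 cluster genes (13.5%), and a 20 kb flank gave 19 regions. Leaving out each replicate gave 2 to 4 cluster genes, 2 to 3 members within 1 kb and 10 to 12 wider-list genes, and the cluster's share of 15.4% without replicate 1 or 4 was close to the 15.3% and 14.3% of all genes. With the nearest TSS only, E(spl)mdelta-HLH was lost and 2 members remained. The stricter settings keep fewer peaks, and beyond that the cause was not tested. The neur intron had a mean percentile of 46.9 when peaks were ranked by the column taken as -log10 q. The shares of letter matches moved with the width searched in all 8 motifs: with 50 bp either side Su(H) letters were in 0.719% of all regions and with 200 bp in 4.12%. No paired analysis was possible because there is no second group of samples to pair with. Without read counts, a missing peak cannot be told from a shallow library.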

Other observations

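Several wider-list genes without a reproducible region ranked high in all 4 ranked lists. kuz, which encodes the metalloprotease that cuts the Notch receptor, had a mean promoter rank of 82.8 ± 4.24 SD (n = 4). pen-2, a gamma-secretase subunit gene, had 80.7 ± 2.51 and Su(dx), a ubiquitin ligase gene, 80.5 ± 7.33, and each had a thresholded peak in 1 list. At the other end, Psn, the catalytic gamma-secretase subunit gene, and the Bearded-family gene BobA had no ranked peak within 1 kb in any list. In the cluster, 5 of the 9 genes without a reproducible region within 1 kb had a mean rank above the median of all genes of 44.5. That share is close to that of all genes, which a median splits evenly. The 5 were E(spl)m7-HLH (76.9 ± 18.5), E(spl)mbeta-HLH (58.9 ± 26.8), E(spl)mgamma-HLH (48.7 ± 19.5), E(spl)malpha-BFM (47.4 ± 22.97) and Kaz-m1 (46.9 ± 23.4). All but E(spl)m7-HLH had no ranked peak within 1 kb in 1 list. E(spl)m7-HLH was the highest of them, with 89.6, 51.8, 74.2 and 92.1 in replicates 1 to 4.

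The letters CAGTG were about as frequent near single-list summits (52.3% of 1823) as near 4-list summits (56.4% of 1171), and in windows 1000 bp away they were in 30.99% to 32.02% of these groups. More than 1 match was seen in 18.8% of reproducible regions and in 6.21% and 6.28% of the windows to the left and right. Around the summits 49.2% of matches lay within 50 bp, so they were not gathered at the centre. They were not evenly spread either. There were 145 matches at 0 to 10 bp from the summit, 246 at 50 to 60 bp and 159 at 90 to 100 bp. In windows 1000 bp away the same distances held 90, 95 and 97.

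Peaks narrower than the usual width of their list (284, 300, 290 and 304 bp in replicates 1 to 4) made up 20.4%, 29.3%, 21.3% and 21.4% of the lists, with median percentiles of 89.01, 83.1, 88.05 and 88.7. The scat region was narrower than that in all 4 lists (166, 214, 182 and 162 bp), as was the gro intron region (177, 241, 188 and 192 bp). The 4-list numb region was narrower in replicates 1, 2 and 4 (124, 211 and 100 bp). So were the second numb summit in replicate 2 (132 bp) and the region upstream of E(spl)malpha-BFM in replicate 4 (86 bp).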
